A study of Macaca mulatta with 12 samples.

Results

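The genes described here are the collagens, laminins, integrins, ADAMTS proteases and fibulins of macaque prefrontal cortex, together with periostin, EFEMP1, fibronectin and asporin. They were chosen by symbol, as every row with 1 platform symbol that began with COL and a digit, LAMA, LAMB, LAMC, ITGA, ITGB, ADAMTS or FBLN, or that was POSTN, EFEMP1, FN1 or ASPN. Of 8785 genes with a row, 50 met the rule, and ADAMTSL1 alone had 2 rows, of which the one with the higher mean was used. The 50 genes comprised 15 collagens, 7 laminins, 8 integrin alpha genes, 4 genes of the integrin beta name, 8 ADAMTS or ADAMTSL genes and 7 fibulins and single genes. ITGB1BP1, a cytoplasmic protein that binds an integrin tail, was included by its name alone and is not a matrix protein or a receptor. ITGBL1, which is related to integrin beta chains in sequence but is not a receptor subunit, is counted with the beta genes. The rule itself reads symbols only, apart from the choice between the rows of ADAMTSL1. It was set with earlier results of these data known, so the choice of genes was not blind to them.

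The extracellular matrix is the protein and sugar scaffold that cells secrete around themselves, and integrins are the paired alpha and beta receptors by which cells hold on to it. In the brain, laminins and type IV collagen form the basement membranes of blood vessels and of the pial surface, while fibrillar collagens lie mainly in the meninges and vessel walls. The tissue between the cells holds little fibrillar collagen and is built chiefly of hyaluronan, proteoglycans and tenascins, through which newborn neurons migrate during development.

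Tissue came from 12 male rhesus macaques whose sudden deaths had no link to the study, and was taken from the superior frontal gyrus in the prefrontal cortex. No genetic change or treatment is given for any animal, and each animal gave 1 array. The 6 fetal animals were taken at 72, 57, 53, 42, 35 and 30 days before birth. The 6 postnatal animals were 1, 24, 182, 353, 479 and 831 days old, and the series text calls all of them newborn. They were therefore also split by age, into 2 animals of 1 and 24 days, called newborn here, and 4 of at least 182 days, called juvenile. The arrays were Affymetrix Human Gene 1.0 ST arrays, made for human transcripts, so a probe mismatch can lower a macaque gene's signal and levels are not compared between genes. Values are on the deposited log scale, read as log2, and array medians lay between 3.98 and 4.38. Precision is limited by the number of arrays.

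Marker genes of neurons were read on the same arrays. The mean of 13 mature neuron markers lay between 5.08 and 5.71 in fetal animals and between 5.89 and 6.52 in postnatal animals. Since levels are not compared between genes on these arrays, these values do not test the label of the tissue. Most of the matrix genes were dim. For 39 of 50, the mean over the 12 arrays was below the median row mean, and COL14A1, COL24A1, ITGA10 and ITGA3 lay under the 20th percentile of the array in all 12 animals. 15 genes had no value under that percentile, and 31 had some.

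The first comparison, postnatal against fetal animals, asks how the expression of these genes differs before and after birth. Periostin, fibronectin, ADAMTS9, COL12A1 and laminin alpha 4 were lower after birth, and EFEMP1, integrin beta 8 and integrin alpha V were higher, in each case with no overlap between the groups. In all, 8 of 50 genes were called higher and 11 lower by limma with Benjamini-Hochberg adjustment over all 9630 rows at 0.05. Over all rows 20.01% were called higher and 13.2% lower, or 33.2% in either direction, against 16% and 22% of the 50 genes, or 38% in all. The share of called genes was therefore near that of all rows. The median difference was -0.08 for the 50 genes and 0.07 for all rows, and 22 estimates were positive and 28 negative. The groups did not overlap for 8 of 50 genes, or 16%, against 13.5% of all rows. 3 of the 8 were higher after birth and 5 lower, against 8.19% and 5.3% of all rows. In this bulk tissue, fewer cells of a type and less RNA per cell cannot be told apart.

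The split by direction depended on the scale. After each array was centred on its median, 8 of the 50 genes were called higher and 14 lower, while the calls over all rows turned from 1927 higher and 1270 lower to 1699 higher and 2059 lower. With a floor for dim values at the 20th percentile of the array, 6 of the genes were called higher and 7 lower.

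**Figure D1:**
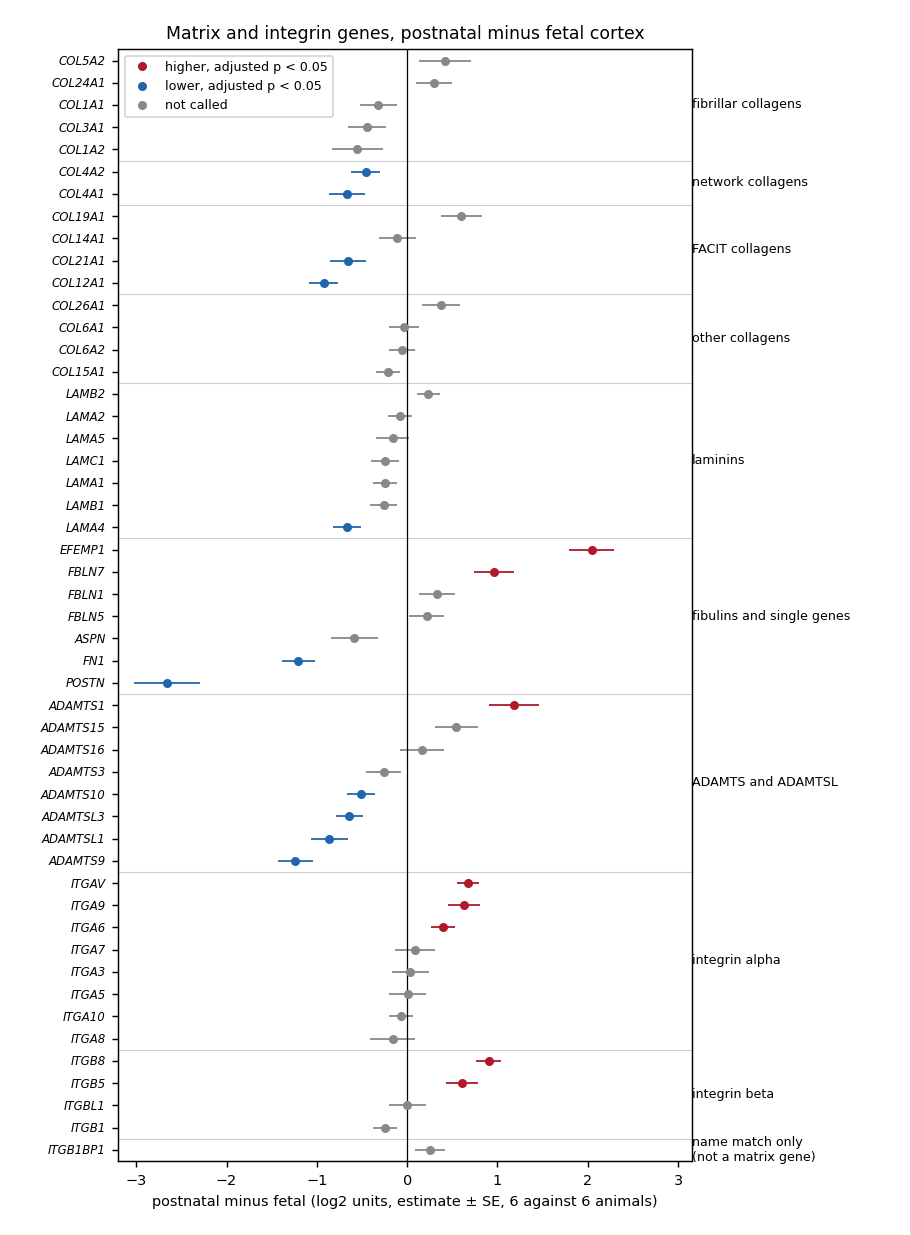
Difference between postnatal and fetal means on the log2 scale for each of the 50 genes, grouped by family, with bars of ± 1 SE from limma (6 against 6 animals). Red points were called higher, blue points called lower and grey points not called. POSTN has the lowest estimate, at -2.66, and EFEMP1 the highest, at 2.04.

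Among the secreted glycoproteins, periostin (POSTN, row 7971077) had the largest difference of the 50 genes. Periostin is secreted into the matrix and binds integrins and collagen. Its values in the fetal animals ran from 3.81 to 5.02 with a median of 4.70, and in the postnatal animals from 0.31 to 3.10 with a median of 1.73. All 6 postnatal animals lay below all 6 fetal animals. The mean went from 4.48 ± 0.50 (SD, n = 6) to 1.82 ± 0.97 (SD, n = 6), and it fell by 2.66 ± 0.36 (SE), or 6.33-fold, with an adjusted p of 9.27e-05 by limma. 5 of the 6 postnatal values were under the 20th percentile of their array, and with values raised to that percentile the difference was -1.45.

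Fibronectin (FN1, row 8058765) is a large matrix glycoprotein that several integrins bind, among them pairs that hold ITGA5 or ITGAV. Fetal values ran from 6.12 to 6.69 around a median of 6.44, and postnatal values from 4.73 to 5.80 around a median of 5.36. The groups were separate. The mean of 6.46 ± 0.21 (SD, n = 6) fell by 1.21 ± 0.18 (SE) to 5.25 ± 0.43 (SD, n = 6), 2.31-fold, with an adjusted p of 0.000166 by limma. Asporin (ASPN), a small leucine-rich protein that binds collagen, was 4.38 ± 0.42 before birth and 3.80 ± 0.63 after it, a difference of -0.59 that did not pass the test (adjusted p = 0.0952 by limma).

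Fibulins are secreted glycoproteins that bind basement membranes and elastic fibres. EFEMP1 (row 8052355), which encodes fibulin-3, lay between 3.38 and 4.13 in fetal animals with a median of 3.86, and between 4.69 and 6.52 in postnatal animals with a median of 6.03. Every postnatal animal was above every fetal animal. The mean rose by 2.04 ± 0.25 (SE), or 4.12-fold, from 3.83 ± 0.26 (SD, n = 6) to 5.87 ± 0.66 (SD, n = 6), with an adjusted p of 4.17e-05 by limma. FBLN7 (row 8044440), a fibulin that takes part in cell adhesion, had fetal values of 1.48 to 2.30 and postnatal values of 1.92 to 3.39. It rose by 0.97 ± 0.22 (SE) with an adjusted p of 0.00336, its groups overlapped, and with dim values raised to the 20th percentile the difference was 0.16 and the call was lost (adjusted p = 0.404). FBLN1 and FBLN5 differed by 0.33 and 0.21 and were not called.

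**Figure D2:**
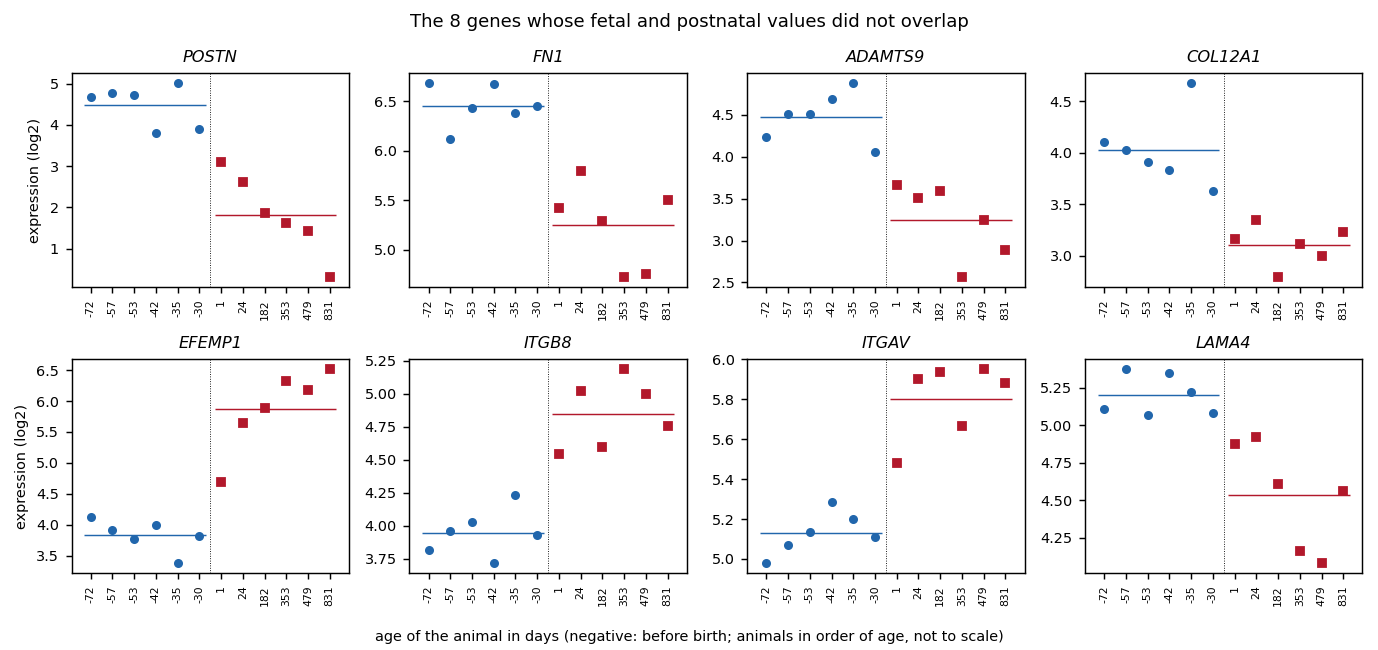
Log2 expression in each of the 12 animals for the 8 genes whose fetal and postnatal values did not overlap, in order of age (days, negative before birth, not to scale); blue points are fetal, red points postnatal, and lines mark group means. POSTN falls from 3.10 in the 1-day animal to 0.31 in the 831-day animal, while EFEMP1 lies between 4.69 and 6.52 after birth.

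None of the 5 measured fibrillar collagens, the collagens that build banded fibres, was called. COL1A1 (row 8016646), COL1A2 (row 8134263) and COL3A1 (row 8046922), which encode the chains of type I and type III collagen, had differences of -0.32 ± 0.21, -0.55 ± 0.28 and -0.44 ± 0.21 (SE). Their adjusted p-values were 0.25, 0.14 and 0.118 by limma. COL5A2 and COL24A1 had differences of 0.42 and 0.30 and were not called either (adjusted p = 0.274 and 0.267). COL5A2 was lowest in the 831-day animal, at 2.00, and without that animal it rose by 0.69 ± 0.20 (SE) and was called (adjusted p = 0.0183 by limma). COL5A2 is the neighbour of COL3A1 in the order of genes of the macaque assembly T2T-MMU8v2.0, and the estimates of these neighbours differed in sign.

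One postnatal animal stood apart in the type I and type III chains. In the 24-day animal COL1A1 was 3.90, against 2.34 to 2.88 in the other postnatal animals. COL1A2 was 4.65 there, and the next highest postnatal value was 3.46. COL3A1 was 3.54, with the next highest value at 2.59. The 24-day animal thus stood above the other postnatal animals in all 3 genes, and within the fetal range of COL1A2 and COL3A1 and above that of COL1A1. Without it, COL1A1 fell by 0.52 ± 0.14 (SE), COL1A2 by 0.79 ± 0.22 and COL3A1 by 0.62 ± 0.17, and all 3 were called (adjusted p = 0.0133, 0.0136 and 0.0107 by limma). The whole count then became 8 genes called higher and 14 lower. Of the postnatal values, 5 of COL1A1, 5 of COL3A1 and 2 of COL1A2 were under the 20th percentile of their array. With all animals kept and dim values raised to that percentile, COL1A1 differed by -0.11, COL3A1 by -0.08 and COL1A2 by -0.50. None of the 3 was called there (adjusted p = 0.628, 0.704 and 0.15 by limma). The floor was not tried with the 24-day animal left out.

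Beside these collagens, markers of meningeal fibroblasts were examined, of which 14 of 22 were measured, DCN and LUM among them. Of the 14, 2 were called higher and 1 lower, against 20.01% and 13.2% of all rows. The mean of the 14 ranged from 3.28 to 3.85 in fetal animals and from 3.50 to 4.20 in postnatal animals. The 24-day animal had a mean of 4.03, and the 831-day animal had the highest, 4.20. COL1A1, COL1A2 and COL3A1 were 2.34, 3.46 and 2.26 in the 831-day animal. Of the postnatal values, these were the lowest for COL1A1 and COL3A1 and the next to highest for COL1A2. In the fetal group the highest mean, 3.85, was that of the animal taken 72 days before birth, which also had the highest fetal values of COL1A1, COL1A2 and COL3A1, at 3.63, 4.89 and 3.58. The part of meningeal tissue in these differences was not tested. Across all 50 genes, the 24-day animal had the highest postnatal value for 19, or 38%, against 24.2% of all rows. It had the lowest for 0, against 12.3% of all rows. After centring on array medians these shares were 30% and 17.6% for the highest value, and 0% and 21.1% for the lowest.

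**Figure D3:**
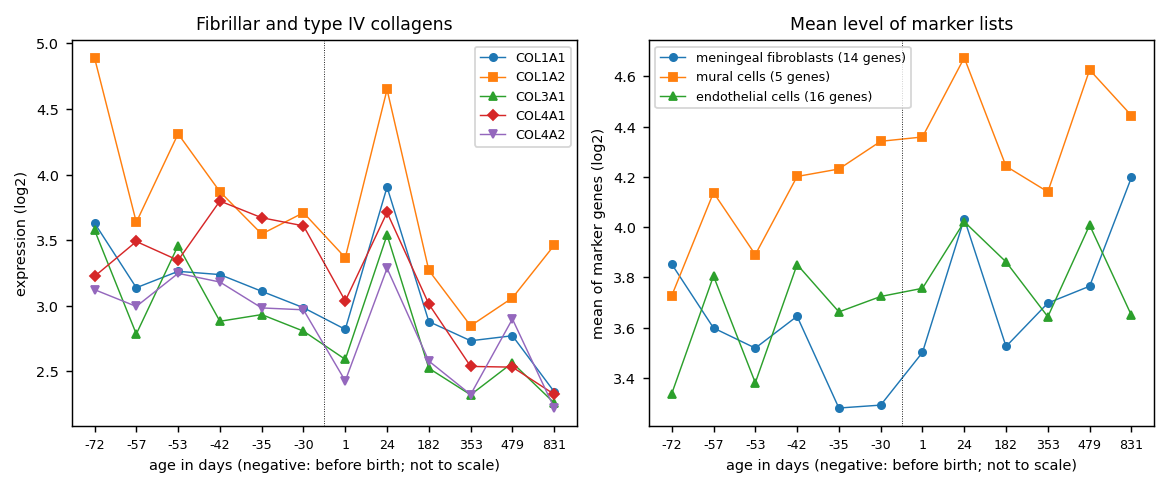
Left, log2 expression of COL1A1, COL1A2, COL3A1, COL4A1 and COL4A2 in each animal in order of age (days, negative before birth, not to scale). Right, mean log2 level of the meningeal, mural and endothelial markers in the same animals. The 24-day animal is high in COL1A1, COL1A2 and COL3A1, at 3.90, 4.65 and 3.54, while the meningeal mean is highest in the 831-day animal, at 4.20.

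Type IV collagen forms the sheet-like network of basement membranes, and both of its measured chains fell. COL4A1 (row 7972750) was 3.22 to 3.80 in fetal animals with a median of 3.55, and 2.32 to 3.71 in postnatal animals with a median of 2.77. The groups overlapped because the highest postnatal value, 3.71 in the 24-day animal, lay within the fetal range. The mean fell by 0.66 ± 0.20 (SE), from 3.52 ± 0.21 (SD, n = 6) to 2.86 ± 0.51 (SD, n = 6), with an adjusted p of 0.018 by limma. COL4A2 (row 7970033) fell by 0.46 ± 0.17 (SE), from 3.08 ± 0.12 to 2.62 ± 0.40 (SD, n = 6), with an adjusted p of 0.0417. COL4A1 and COL4A2 are neighbours in the macaque assembly. The COL4A2 call was lost under 11 of 21 alternative settings, and with dim values raised to the 20th percentile neither chain was called (adjusted p = 0.0504 and 0.555). Without the 24-day animal the differences were -0.83 and -0.59 (adjusted p = 0.00136 and 0.00448).

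Laminins are cross-shaped trimers of an alpha, a beta and a gamma chain, and basement membranes assemble on them. Of 7 measured chains 1 was called, or 14.3%, against 33.2% of all rows. It was laminin alpha 4 (LAMA4, row 8128991), the alpha chain typical of blood vessels. Fetal values of LAMA4 ran from 5.07 to 5.38 around a median of 5.16, and postnatal values from 4.08 to 4.92 around a median of 4.59. The groups were separate. The mean of 5.20 ± 0.14 (SD, n = 6) fell by 0.67 ± 0.15 (SE), 1.59-fold, to 4.54 ± 0.35 (SD, n = 6), with an adjusted p of 0.00377 by limma. LAMB1 and LAMC1, the beta and gamma chains of several brain laminins, had differences of -0.26 (95% interval -0.58 to 0.06) and -0.24 (-0.57 to 0.09). LAMA1, LAMA5 and LAMA2 had differences of -0.25, -0.16 and -0.08, and LAMB2, a beta chain of mature vessels, had 0.23 (-0.04 to 0.50). After centring on array medians LAMA1 and LAMB1 were also called lower, with differences of -0.34 and -0.36 (adjusted p = 0.032 and 0.0279 by limma).

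Markers of vessel cells were set beside COL4A1, COL4A2 and LAMA4. Of 16 measured endothelial markers, 3 were called higher and 1 lower, against 20.01% and 13.2% of all rows. The glucose transporter SLC2A1 rose by 0.90, and KDR, a receptor for vascular endothelial growth factor, fell by 0.95. The mean of the 16 ranged from 3.34 to 3.85 in fetal animals and from 3.64 to 4.02 in postnatal animals. Of 5 measured mural cell markers, RGS5 rose by 1.09 and MYLK by 0.65, and the mean of the 5 was 3.73 to 4.34 before birth and 4.14 to 4.67 after it. The 24-day animal had the highest mean of both lists, 4.02 and 4.67. The part of vessel density in the basement membrane genes was not tested.

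FACIT collagens coat the surface of collagen fibrils without forming fibrils of their own. COL12A1 (row 8127563) was 3.63 to 4.68 in fetal animals, with a median of 3.97, and 2.79 to 3.35 in postnatal animals, with a median of 3.13. All postnatal values were below all fetal values. The mean fell by 0.92 ± 0.16 (SE), 1.90-fold, from 4.03 ± 0.36 (SD, n = 6) to 3.11 ± 0.20 (SD, n = 6), with an adjusted p of 0.00052 by limma. COL21A1 (row 8127201) fell by 0.65 ± 0.19 (SE), with an adjusted p of 0.0167, from 3.01 ± 0.37 to 2.35 ± 0.38. Raised to the 20th percentile, its difference was -0.08 and the call was lost (adjusted p = 0.658). COL19A1 differed by 0.60 (adjusted p = 0.0504) and COL14A1 by -0.11, and neither was called. COL19A1 was called higher under 6 of 21 alternative settings, among them centring on array medians (difference 0.50, adjusted p = 0.0373) and leaving out the 831-day animal (0.75, adjusted p = 0.0128). All 6 of its fetal values and 2 postnatal values were under the 20th percentile. Raised to that percentile, its difference was 0.34 and it was not called (adjusted p = 0.103).

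None of the other 4 collagens was called. COL26A1 had the smallest p of them, with a difference of 0.38 (95% interval -0.07 to 0.82, adjusted p = 0.182 by limma). COL6A1 and COL6A2, neighbours in the macaque assembly that encode chains of the beaded filament collagen VI, differed by -0.03 and -0.06. COL15A1, a collagen of the basement membrane zone, differed by -0.21.

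ADAMTS enzymes are secreted metalloproteases, several of which cut proteoglycans of the versican and aggrecan family, and the ADAMTSL proteins resemble them without a protease domain. Of 8 measured genes 1 rose and 4 fell, or 12.5% and 50%, against 20.01% and 13.2% of all rows. ADAMTS9 (row 8088560), a protease that cuts versican, was 4.06 to 4.88 in fetal animals with a median of 4.51, and 2.56 to 3.67 in postnatal animals with a median of 3.38. The groups were separate. It fell by 1.24 ± 0.20 (SE), 2.36-fold, from 4.48 ± 0.30 to 3.24 ± 0.44 (SD, n = 6), with an adjusted p of 0.000241 by limma.

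ADAMTS1 (row 8069676), which also cuts versican and aggrecan, moved the other way. Its fetal values ran from 1.36 to 2.67 around a median of 1.60, and its postnatal values from 2.29 to 3.97 around a median of 3.07. The groups overlapped. It rose by 1.19 ± 0.28 (SE), 2.27-fold, with an adjusted p of 0.00389 by limma, but with dim values raised to the 20th percentile the difference was 0.28 and the call was lost (adjusted p = 0.225).

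ADAMTSL3 (row 7985522) fell by 0.64 ± 0.15 (SE) and ADAMTS10 (row 8033635), which binds fibrillin, by 0.51 ± 0.15, with adjusted p-values of 0.00476 and 0.0173 by limma. ADAMTSL1 (row 8154491) fell by 0.86 with an adjusted p of 0.00447, and raised to the 20th percentile it differed by -0.17 (adjusted p = 0.302). The second row of ADAMTSL1 (8154512) did not show this, with 2.44 ± 0.30 before birth, 2.33 ± 0.37 after it and an adjusted p of 0.658. The proteoglycan-cutting ADAMTS15 differed by 0.54 and was not called (adjusted p = 0.0908), but was called higher without the 831-day animal (0.72, adjusted p = 0.0154) and with array weights. Its 6 fetal values and 3 postnatal values were under the 20th percentile, and raised to it the difference was 0.24 (adjusted p = 0.226). ADAMTS3, which trims procollagen, differed by -0.26 and ADAMTS16 by 0.17, and neither was called.

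Of the 12 integrin genes, 5 were called higher and 0 lower, against 20.01% and 13.2% of all rows. Estimates were positive for 9, those of ITGA5 (0.005) and ITGBL1 (0.003) among them, and negative for 3. That balance of signs depended on the scale: after centring on array medians, 5 estimates were positive and 7 negative, with a median of -0.03 in place of 0.06. Integrin alpha V (ITGAV, row 8046861) pairs with several beta chains, and integrin beta 8 (ITGB8, row 8131666) pairs with alpha V to release active TGF-beta from its latent form. ITGB8 was 3.72 to 4.23 in fetal animals, with a median of 3.94, and 4.54 to 5.19 in postnatal animals, with a median of 4.88. Its mean rose by 0.90 ± 0.14 (SE), 1.87-fold, from 3.95 ± 0.18 to 4.85 ± 0.26 (SD, n = 6), with an adjusted p of 0.000209 by limma. ITGAV was 4.98 to 5.28 before birth and 5.48 to 5.95 after it, with medians of 5.12 and 5.89. It rose by 0.67 ± 0.12 (SE), 1.60-fold, with an adjusted p of 0.000512. Both partners of this receptor were higher in every postnatal animal than in any fetal animal.

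Integrin beta 5 (ITGB5, row 8090162), another partner of alpha V and a vitronectin receptor chain, was 3.55 to 3.73 in fetal animals and 3.63 to 5.02 in postnatal animals. The lowest postnatal value was that of the 1-day animal and the highest that of the 24-day animal, and only the 1-day animal lay in the fetal range. ITGB5 rose by 0.61 ± 0.18 (SE) with an adjusted p of 0.016 by limma. Integrin alpha 9 (ITGA9, row 8078619), a receptor chain for tenascin C, rose by 0.63 ± 0.18 (SE), from 2.98 ± 0.34 to 3.61 ± 0.30 (SD, n = 6), with an adjusted p of 0.0112. Integrin alpha 6 (ITGA6, row 8046380), a laminin receptor chain, rose by 0.40 ± 0.14 (SE) with an adjusted p of 0.033, a call lost under 10 of 22 alternative settings, centring on array medians (adjusted p = 0.157) among them.

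Integrin beta 1 (ITGB1), the common partner of most alpha chains, did not share this direction. It was 4.67 ± 0.20 before birth and 4.43 ± 0.20 after it, a difference of -0.24 (95% interval -0.52 to 0.04) that was not called (adjusted p = 0.171 by limma). After centring on array medians ITGB1 was called lower, with a difference of -0.34 (adjusted p = 0.0266), and the counts of the 12 integrin genes became 4 higher and 1 lower. The fibronectin receptor chain ITGA5 differed by 0.01 (-0.43 to 0.45), and ITGA3, ITGA7, ITGA8, ITGA10 and ITGBL1 had differences between -0.16 and 0.09. ITGB1BP1 differed by 0.25 (adjusted p = 0.273).

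**Figure D4:**
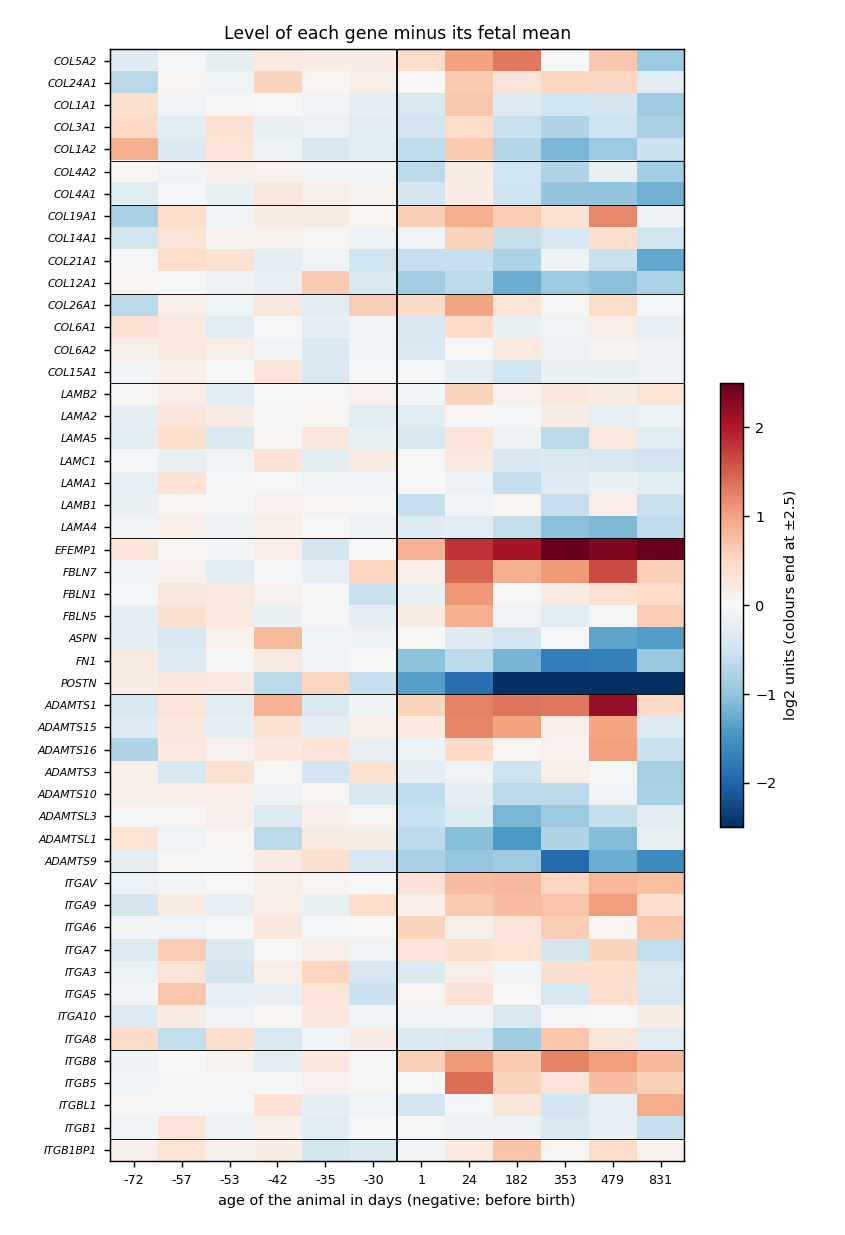
Level of each of the 50 genes in each animal minus the mean of that gene over the fetal animals, in log2 units with colours ending at ± 2.5, with animals ordered by age and genes by family. POSTN, FN1 and ADAMTS9 are blue (lower) in all 6 postnatal animals, while EFEMP1, ITGB8 and ITGAV are red (higher).

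The cytoplasmic proteins that tie integrins to actin and pass on their signals were set beside the receptors. Of 37 listed genes 29 were measured, and 11 were called higher and 0 lower, against 20.01% and 13.2% of all rows. The median difference was 0.33 against 0.07 for all rows. The calls were 9 higher and 0 lower after centring on array medians. ACTN1, an actin crosslinker at adhesion sites, rose by 1.53 ± 0.19 (SE) with an adjusted p of 4.3e-05 by limma. TNS1, a tensin that binds integrin tails, rose by 0.87 ± 0.18 (SE) with an adjusted p of 0.00183. The other called genes were TLN1, TLN2, ILK, PARVA, PARVB, CRKL, ELMO1, DOCK1 and TNS3, named here because the count includes them.

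Proteoglycans, hyaluronan synthases and other brain matrix genes formed a further list. Of 27 measured of 54 listed, 13 were called lower and 3 higher, against 13.2% and 20.01% of all rows. The median was -0.34, and centring on array medians left these counts unchanged. Thrombospondin 1 (THBS1), a matricellular protein secreted by astrocytes, fell by 2.36 ± 0.42 (SE), from 7.20 ± 0.71 to 4.84 ± 1.06 (SD, n = 6), with an adjusted p of 0.000603 by limma. HAS2, a hyaluronan synthase, fell by 1.91 with an adjusted p of 0.000338. SPARCL1, a matricellular protein of astrocytes, rose by 1.00 ± 0.19 (SE) with an adjusted p of 0.00103.

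Genes that process collagen gave 3 called higher and 1 lower of 18 measured of 30 listed, against 20.01% and 13.2% of all rows. The same shares of all rows stand beside the other lists of this paragraph. CRTAP, a subunit of the collagen prolyl 3-hydroxylase complex, rose by 0.57, and LOX, which crosslinks collagen and elastin, fell by 0.62. After centring on array medians the counts were 2 higher and 4 lower. Of 11 measured basement membrane partners, 4 were called higher and 2 lower. UTRN, which links dystroglycan to actin, rose by 0.50, while PXDN, a peroxidase that crosslinks type IV collagen, fell by 0.69 and the netrin NTN4 fell by 0.56. Of 9 measured matrix metalloproteinases and inhibitors 2 were called higher and 3 lower, among them TIMP3, a matrix-bound inhibitor, which rose by 0.93, and MMP24, which fell by 1.01.

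Markers of several brain cell types moved between the same groups, for which 20.01% of all rows were called higher and 13.2% lower. Of 9 measured astrocyte markers 8 were called higher and 0 lower, with means of 5.29 to 6.22 before birth and 6.41 to 6.98 after it. All 7 measured oligodendrocyte markers were called higher, with means of 1.81 to 2.67 and 3.31 to 5.56. Of 11 measured immature neuron markers 8 were called lower and 0 higher, with means of 6.09 to 6.81 and 4.56 to 5.69. Of 5 microglia markers 4 were called higher. Of 13 radial glia markers 6 were called higher and 5 lower. The part of these cell types in the differences of the matrix and integrin genes was not tested.

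The 2 newborn animals were compared with the 6 fetal animals, which also serve in the comparison above, so these values are not independent of it. 5 of 50 genes, or 10%, were called, against 7.17% of all rows. 2 were higher and 3 lower, against 4.92% and 2.24% of all rows. EFEMP1 rose by 1.34 ± 0.25 (SE) and ITGB8 by 0.83 ± 0.20, with adjusted p-values of 0.00899 and 0.0235 by limma. POSTN fell by 1.63 ± 0.38, FN1 by 0.85 ± 0.23 and ADAMTS9 by 0.89 ± 0.26, with adjusted p-values of 0.0195, 0.0373 and 0.0472. Leaving out either newborn animal leaves 1, which is then assumed to vary like the animals of the other groups. On that assumption 0 genes were called without the 24-day animal, where EFEMP1 differed by 0.86 (adjusted p = 0.268), and 7 without the 1-day animal. FN1 and ADAMTS9 were not among those 7 (adjusted p = 0.185 and 0.0988). Without the fetal animal at 35, 72 or 53 days before birth the count was 3 in each case.

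Juvenile against newborn animals gave 0 called genes, against 0.0415% of all rows, or 0.0208% in each direction. At an unadjusted p under 0.05 by limma 1 gene was higher and 8 lower, which is 9 of 50, against 7.0% of all rows. COL1A1, COL1A2, COL3A1 and COL4A1 were among the lower genes and were high in the 24-day animal, 1 of the 2 newborn animals. In the 1-day animal they were 2.82, 3.37, 2.59 and 3.04, against highest juvenile values of 2.88, 3.46, 2.56 and 3.01. EFEMP1 differed by 1.06 ± 0.27 (SE, adjusted p = 0.315) and POSTN by -1.55 ± 0.40 (adjusted p = 0.317). ITGA9 had the next smallest p among the positive estimates, with 0.33 (adjusted p = 0.895), and COL4A1 among the negative ones, with -0.77 ± 0.24 (adjusted p = 0.5).

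Within the postnatal group, 1 of 50 genes was called for a change with age, against 0.0623% of all rows. The 1 gene was higher with age and 0 were lower, against 0.0415% and 0.0208% of all rows. EFEMP1 rose by 0.18 ± 0.03 (SE) for each doubling of age, with an adjusted p of 0.0256 by limma. Its values were 4.69, 5.65, 5.89, 6.32, 6.17 and 6.52 from the 1-day to the 831-day animal, and they rose at each step but that from 353 to 479 days. The call was lost without the 1-day animal (adjusted p = 0.373). It was also lost without each of the postnatal animals of 24, 353, 479 and 831 days and the fetal animals at 42 and 53 days before birth. With the other age scales, ranks and units of 100 days, EFEMP1 was not called either. In all, its call was lost under 11 of 22 alternative settings.

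POSTN was 3.10, 2.60, 1.85, 1.62, 1.44 and 0.31 at the same ages and was the only one of the 50 genes to be lower at every step, as were 39 of all 9630 rows. Its slope of -0.24 ± 0.05 (SE) per doubling of age was not called (adjusted p = 0.123 by limma). It was called under 5 of 22 alternative settings, among them quantile normalization and centring (adjusted p = 0.0378 and 0.0413). The other age scales, ranks and units of 100 days, were also among them. With dim values raised to the 20th percentile the slope was -0.02 (adjusted p = 0.986), since most postnatal values lay under it.

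Within the fetal group, 0 of 50 genes were called for a change per 10 days toward birth, against 0.0% of all rows. By limma at an unadjusted p under 0.05, 1 of the 50 genes passed, against 5.59% of all rows. COL26A1 had a slope of 0.20 ± 0.09 (SE, adjusted p = 0.871) and COL24A1 one of 0.19 ± 0.09 (adjusted p = 0.891). COL1A2 and ITGB1BP1 had the smallest p among the negative slopes, at -0.26 ± 0.13 and -0.15 ± 0.08 (adjusted p = 0.891 and 0.904).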

How the data were processed

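The authors deposited 1 table of log2 values, 9630 rows by 12 arrays. No source used here states the base, which was inferred from the span of -0.86 to 10.6, and folds rest on it. Background correction, normalization and row selection are not given in those sources either. Build hg 18 is named in the submitters' processing notes; coordinates were not used. Symbols came from GEO's platform annotation: 8848 rows had 1, 229 several and 553 none. All 50 genes were in a RefSeq table of T2T-MMU8v2.0.

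All rows were fitted with limma 3.58.1 (lmFit, eBayes) in R 4.3.3, with Benjamini-Hochberg adjustment at 0.05. The age slopes came from a fit with group and age within group, and the stage comparisons from one with 3 groups. Nothing says how the arrays were batched, so no batch was fitted. The genes and lists were chosen with earlier results of these data known. In each family up to 4 called genes per direction with the largest difference were named, or the one with the smallest p. In each list of matrix, adhesion, endothelial or mural genes the names are the 2 called genes that differed most and the called gene that differed most the other way. The called genes of the other cell type lists are counted but not named. In each slope or stage comparison they are up to 5 called genes per direction, otherwise the 2 of smallest p. Other names were chosen after their values were seen. Blood markers gave 1 measured gene of 12, ALAS2, with a difference of -0.36 (adjusted p = 0.196), and 6 measured oligodendrocyte precursor markers gave 1 higher and 2 lower. Of 13 mature neuron markers 10 were called higher, against 20.01% of all rows.

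The alternatives tried were a floor at the 20th percentile, quantile normalization, centring on array medians, array weights, removal of the dimmest 25 percent of rows, eBayes with trend and robust, leaving out each animal, juvenile animals only, fits without the animals nearest birth, other age scales and the mean of a gene's rows. A fit without the 2 arrays whose medians were highest (1 per group) was added after seeing the data. On simulated data for postnatal against fetal animals (9630 rows), 50 rows were shifted for each size. The share of changed rows called was 36% for a shift of 0.5, 86% for 1, 94% for -1 and 100% for 2. In the real data 33.2% of rows were called, far more than were shifted here. The adjusted threshold was thus stricter in the simulation, and these shares do not give the share of real changes that were called.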

Additional observations from a re-analysis of the deposited data

Results flagged for a closer look

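In 6 of 100 groups (50 genes in fetal and in postnatal animals), 1 animal lay far from the other 5 by Dixon's criterion, which chance alone gives in about 1 in 20 groups. 3 of the 6 were the 24-day animal: COL1A1 was 3.90 there against 2.88 in the next postnatal animal, COL1A2 was 4.65 against 3.46, and COL3A1 was 3.54 against 2.59. In the fetal group, the animal at 42 days before birth was low in ADAMTSL3, at 4.60 against 4.90, and high in ITGA6, at 4.76 against 4.49. The animal at 53 days before birth was low in LAMB2, at 3.06 against 3.35.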

How the results depend on the processing

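Of 22 genes named for postnatal against fetal animals, 14 kept their side of the threshold under every alternative run. The count of called genes, 19, was 17 to 22 with 1 animal left out, 22 after quantile normalization or centring, 24 with juvenile animals only and 13 with a floor at the 20th percentile. The median difference of the 50 genes, -0.08, was -0.11 to -0.03 with 1 animal left out and turned to 0.0812 with the floor, which raises the dim values. For newborn against fetal animals the count of 5 became 3 with array weights, and 0 to 7 with 1 animal left out. In that comparison COL12A1 was also called lower after quantile normalization, after centring, without the dimmest rows, with the floor and with eBayes trend and robust. ITGAV was also called higher in those settings except centring. The count of 1 for the postnatal slope became 2 after quantile normalization, after centring or with eBayes trend and robust. It became 0 with array weights or without the 2 arrays whose medians were highest, and was 0 to 1 with 1 animal left out. The cause was not tested. With ages as ranks or in units of 100 days, the called gene was POSTN in place of EFEMP1. The counts of 0 for the fetal slope and for juvenile against newborn animals stayed 0 with any 1 animal left out. No paired analysis was possible, because each animal was either fetal or postnatal. The labels describe separate animals, 1 array each, with no technical repeat. Dim signal limits what could be measured: 31 of 50 genes had some values, and 4 had all 12, under the 20th percentile of the array.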
